A study of Homo sapiens and Mus musculus with 16 samples.

Results

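Transcripts of 10 core stress granule proteins were followed between P-bodies and cytoplasm: G3BP1, G3BP2, TIA1, TIAL1, CAPRIN1, UBAP2L, ATXN2, ATXN2L, USP10 and FMR1. They were chosen by symbol, without regard to case, and all 10 were present among the 22286 genes of the human table and the 15881 genes of the mouse table. Purified P-bodies were compared with the cytoplasm from which they were sorted in 16 libraries, 2 of each fraction from each of 4 cell types. The human cells were HEK293T, a transformed embryonic kidney line, together with liver bud progenitors and day 20 neurons, which were differentiated from the human embryonic stem (ES) cell line UCLA4. The mouse cells were KH2 ES cells (mESCs) grown in serum-LIF.

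Every line, in both fractions, carried LSM14a-GFP, a fluorescent fusion to a P-body protein, so no group lacked the fusion. It was delivered to HEK293T cells and mESCs by lentivirus under the EF1a promoter and was placed at the AAVS1 locus of the UCLA4 line in a tet vector. The cytoplasmic fraction was the particle pellet before sorting, after nuclei had been removed. HEK293T and mESC libraries were made from total RNA with random primers, whereas liver bud progenitor and neuron libraries were made from polyA RNA, so cell type, cell line and library chemistry cannot be told apart in any comparison that crosses them.

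Stress granules and P-bodies are separate cytoplasmic condensates of RNA and protein. Stress granules form when translation initiation is blocked, commonly after phosphorylation of the initiation factor eIF2, and the RNA-binding protein G3BP1 and its paralog G3BP2 act as their nucleating core. P-bodies are present without stress and hold translationally repressed mRNAs together with decapping and repression factors such as DDX6. Cells here were not described as stressed, and the measurements concern where the mRNAs that encode stress granule proteins were found, not where the proteins were.

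Library totals ranged from 6368953 to 17972284 counts, and each stress granule gene had at least 172 counts in every library. Replicates correlated between 0.915 and 0.988 (Spearman, all genes). The lowest value belonged to the neuron P-body pair, which also differed most per gene beyond counting noise (chi-square per gene 21.1, against at most 5.45 in the other pairs). Neuron calls of the 10 genes that were lost without a single library are therefore named below. Neuron calls of other genes were not examined in this way and may be as fragile. The 5 neuronal markers summed to 9871 and 9961 CPM (read counts relative to the library size) in the neuron cytoplasm libraries, against 9.96 to 191 in the other cell types. The 5 hepatic markers, of which 3 were listed in the mouse table and 4 in HEK293T cells, summed to 364 and 373 CPM in liver bud progenitor cytoplasm, against 0.681 to 7.36 elsewhere. Liver bud progenitor cytoplasm also held 791 and 802 CPM of 5 pluripotency markers, mostly LIN28A at 616 ± 5.80 CPM (SD, n = 2) with POU5F1 at 80.4 ± 1.40, and their part in the results below was not tested.

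Among the 10 genes are 3 pairs of paralogs, and reads from one could be taken for the other where their sequences are alike. The most alike in-frame, ungapped coding windows of 90 bases, each inside a single exon, were sought over all pairs of positions. They are given here from the main human transcripts of GENCODE 44 on hg38, 5′ to 3′ on the coding strand, with G and C in capitals. The G3BP windows (exon 2 of each, chr5:151786621-151786710 on the plus strand and chr4:75661936-75662025 on the minus strand) shared 68 of 90 bases. The TIA windows (chr2:70215398-70215487 in exon 11 and chr10:119577107-119577196 in exon 10, both on the minus strand) shared 78. The ataxin windows (chr12:111520884-111520973 on the minus strand and chr16:28829401-28829490 on the plus strand, exon 7 of each) shared 69.
G3BP1: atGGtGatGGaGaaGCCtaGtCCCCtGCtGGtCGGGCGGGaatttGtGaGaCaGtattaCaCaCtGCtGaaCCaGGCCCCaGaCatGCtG
G3BP2: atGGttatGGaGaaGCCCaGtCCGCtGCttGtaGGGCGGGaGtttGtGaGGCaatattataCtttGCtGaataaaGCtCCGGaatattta
TIA1: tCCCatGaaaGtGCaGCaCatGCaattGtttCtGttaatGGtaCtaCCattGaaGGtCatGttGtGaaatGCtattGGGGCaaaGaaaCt
TIAL1: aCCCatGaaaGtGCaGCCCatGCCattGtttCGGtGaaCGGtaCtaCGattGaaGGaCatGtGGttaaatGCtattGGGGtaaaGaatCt
ATXN2: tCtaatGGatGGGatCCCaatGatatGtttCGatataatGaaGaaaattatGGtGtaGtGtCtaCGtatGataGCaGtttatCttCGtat
ATXN2L: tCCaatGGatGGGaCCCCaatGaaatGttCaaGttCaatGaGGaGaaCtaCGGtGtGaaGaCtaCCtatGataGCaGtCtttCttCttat
Within these windows ATXN2L held more G and C than ATXN2 (41.1% against 33.3%). The TIA pair, at 86.7% identity, was the closest in these windows. Identity over whole transcripts was not compared and misassigned reads were not measured, so the counts of all 3 pairs carry an unknown uncertainty from shared reads.

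CAPRIN1 transcripts were richer in P-bodies than in cytoplasm of all 4 cell types, ATXN2L transcripts were poorer in all 4, UBAP2L transcripts were poorer in the 3 human cell types and richer in mESCs, and the other 7 were called in some cell types and not in others. Levels below are CPM after scaling by the trimmed mean of M-values (TMM) within each cell type, changes are log2 P-body over cytoplasm ± SE, and a gene is called at an adjusted p under 0.05 over all genes. In HEK293T cells 5 of the 10 transcripts were called higher in P-bodies, where 19.3% of 21903 genes were, and 2 were called lower, where 22.8% of genes were. In liver bud progenitors 6 were higher (21.4% of 21951 genes) and 2 lower (17.1%). Neurons had 3 higher (14.6% of 22093 genes) and 2 lower (14.1%), and mESCs 6 higher (25.8% of 15881 genes) and 2 lower (20.6%). These shares, and those further below, are over all genes with any count, many of them scarce. The 10 transcripts had at least 172 counts in every library. The shares were not matched for level, so a count above them cannot be read as particular to these genes. The median change of the 10 transcripts was 0.26 in HEK293T cells, 0.46 in liver bud progenitors, 0.09 in the neurons and 0.23 in mESCs, beside −0.01, −0.09, 0.19 and −0.11 over all genes tested. With unscaled library sizes, which lowered the median of all mESC genes by 0.40, the mESC counts became 1 higher and 5 lower.

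**Figure D1:**
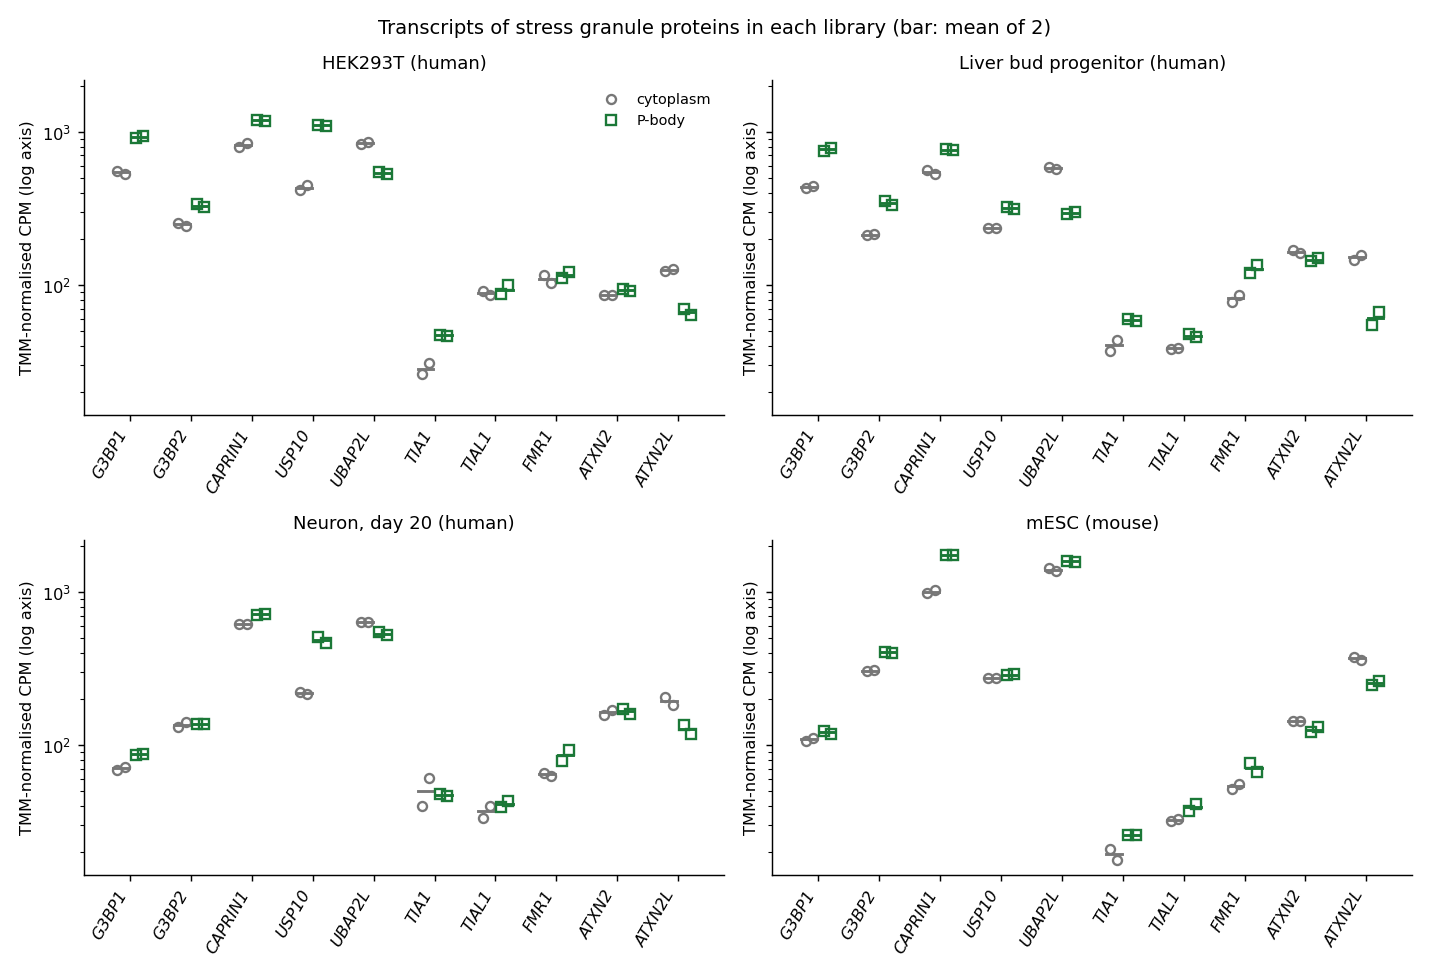
TMM-normalised CPM (log axis) of the 10 transcripts in each library of the 4 cell types, cytoplasm as grey circles and P-body as green squares, with a bar at the mean of the 2 libraries. ATXN2L lies lower in P-bodies in every panel, and G3BP1 lies at 68.6 and 72.2 CPM in neuron cytoplasm against 552 and 532 CPM in HEK293T cytoplasm, each scaled within its own cell type.

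G3BP1, whose protein nucleates stress granules, was found at 912 and 939.9 CPM in HEK293T P-bodies against 552 and 532 CPM in cytoplasm. Its transcript was thus 1.71-fold richer in P-bodies (log2 0.77 ± 0.05, adjusted p = 2.04e-20). Liver bud progenitors gave 751 and 788 CPM in P-bodies against 429 and 439.5 CPM in cytoplasm, a 1.77-fold difference (log2 0.82 ± 0.05, adjusted p = 5.79e-22). No library of one fraction overlapped the other in either cell type. In neurons G3BP1 was scarce in both fractions, at 86.3 and 87.7 CPM in P-bodies and 68.6 and 72.2 CPM in cytoplasm, and the change of 0.31 ± 0.12 was not called (adjusted p = 0.0830). It was called higher with RLE size factors (0.36, adjusted p = 0.0430), unscaled library sizes (0.47, adjusted p = 0.0159), low counts filtered (0.41, adjusted p = 0.0214), a replicate block (0.31, adjusted p = 0.0483) and a single human fit (0.19, adjusted p = 0.0251), all in edgeR, and ranged from 0.26 to 0.33 without single libraries. In mESCs G3bp1 gave 124 and 117 CPM against 106 and 112 CPM, and its change of 0.15 ± 0.06 (adjusted p = 0.0517) turned to −0.25, called lower, with unscaled library sizes. It was called higher without ribosomal RNA genes (0.16), with a replicate block (0.15), and without P-body replicate 2 (0.22) or cytoplasm replicate 2 (0.19).

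The paralog G3BP2 changed in the same direction by less in HEK293T cells, where 335 and 324 CPM in P-bodies stood against 252 and 244 CPM in cytoplasm (log2 0.41 ± 0.06, adjusted p = 1.24e-08). In liver bud progenitors it reached 354 and 334 CPM in P-bodies against 211 and 213 CPM (log2 0.70 ± 0.06, adjusted p = 2.31e-15). Neuronal G3BP2 did not separate, with 137 and 138 CPM in P-bodies lying inside the cytoplasmic values of 130.4 and 142 CPM. Mouse G3bp2 was at 407 and 399 CPM in P-bodies against 303 and 309 CPM in cytoplasm (log2 0.40 ± 0.04, adjusted p = 2.22e-08), a change that was −0.01 with unscaled library sizes.

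CAPRIN1, an RNA-binding partner of G3BP1 that promotes granule assembly, was the one transcript called higher in P-bodies of all 4 cell types. HEK293T P-bodies held 1200.5 and 1169 CPM against 796 and 841 CPM in cytoplasm (log2 0.53 ± 0.05, adjusted p = 1.56e-14). The liver bud progenitor values were 768 and 758 CPM against 558 and 529.7 CPM (log2 0.49 ± 0.05, adjusted p = 1.09e-12). In mESCs Caprin1 was at 1736 and 1737 CPM in P-bodies and 985 and 1025 CPM in cytoplasm, and its change of 0.79 ± 0.04 (adjusted p = 1.46e-15) stayed called, at 0.39, with unscaled library sizes. The neuronal difference was small, 708 and 722 CPM against 619 and 613 CPM (log2 0.22 ± 0.07, adjusted p = 0.0473). This neuronal change lay above only 50.5% of all genes tested, whose median was 0.19. It was no longer called when neuron P-body replicate 2, cytoplasm replicate 1 or cytoplasm replicate 2 was left out, at 0.20, 0.21 and 0.19, or in a single fit of all human libraries (0.10, adjusted p = 0.158).

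USP10, a deubiquitinase that binds G3BP1 and limits granule condensation, had the highest P-body enrichment of the 10 in HEK293T cells. Its P-body libraries held 1102 and 1095 CPM and its cytoplasmic libraries 414 and 448 CPM, a 2.55-fold difference (log2 1.35 ± 0.05, adjusted p = 4.23e-31) that lay above 88.9% of all genes tested. Neurons gave 507 and 464 CPM against 221 and 216 CPM (log2 1.15 ± 0.09, adjusted p = 5.34e-07), with 1.08 to 1.21 on leaving out single libraries. Liver bud progenitors showed a smaller difference, 322 and 313 CPM against 236 and 233 CPM (log2 0.43 ± 0.06, adjusted p = 1.33e-08). In all 3 human cell types the P-body libraries were above the cytoplasmic ones. Mouse Usp10 was nearly level, at 286 and 292 CPM against 276 and 276 CPM (log2 0.07 ± 0.04, adjusted p = 0.239), and lay at −0.34 with unscaled library sizes.

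UBAP2L, a protein that acts with G3BP1 in granule nucleation, went the other way in human cells. HEK293T P-bodies held 549 and 527 CPM against 826 and 857 CPM in cytoplasm, 1.56-fold lower (log2 −0.65 ± 0.05, adjusted p = 4.98e-17). In liver bud progenitors the levels were 290.2 and 299 CPM against 592 and 573 CPM, 1.98-fold lower (log2 −0.98 ± 0.06, adjusted p = 2.38e-24). Neuronal UBAP2L was lower by less, at 548 and 521 CPM against 637 and 639 CPM (log2 −0.26 ± 0.08, adjusted p = 0.0244), and this call was lost without P-body replicate 2 (−0.22), cytoplasm replicate 1 (−0.27) or cytoplasm replicate 2 (−0.27). It was also lost with RLE size factors (−0.20), low counts filtered (−0.15) and unscaled library sizes (−0.09), so the neuronal call rests on the scaling as well. The mouse transcript was abundant in both fractions, at 1583 and 1578 CPM in P-bodies against 1423 and 1360.2 CPM in cytoplasm. Its change of 0.18 ± 0.03 (adjusted p = 0.000105) became −0.22, called lower, with unscaled library sizes, so the mESC direction rests on the scaling too.

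TIA1 and TIAL1 encode related RNA-binding proteins that bind U-rich sequences, repress translation and promote granule assembly. TIA1 was at 47.0 and 46.4 CPM in HEK293T P-bodies against 26.0 and 30.7 CPM in cytoplasm (log2 0.72 ± 0.11, adjusted p = 1.42e-07). In liver bud progenitors it was at 59.8 and 58.5 CPM against 37.2 and 43.4 CPM (log2 0.55 ± 0.11, adjusted p = 1.24e-05). In neurons the cytoplasmic values of 40.1 and 60.5 CPM spanned the P-body values of 48.2 and 46.8 CPM. Mouse Tia1 was called higher, at 25.9 and 25.8 CPM against 20.8 and 17.8 CPM (log2 0.42 ± 0.13, adjusted p = 0.0127), a call lost with DESeq2 (0.41), without P-body replicate 1 (0.42), without cytoplasm replicate 2 (0.31) and with unscaled library sizes (0.02). TIAL1 changed by 0.07 ± 0.08 in HEK293T cells, 0.27 ± 0.11 in liver bud progenitors (adjusted p = 0.0515) and 0.16 ± 0.17 in neurons, none called. Tial1 in mESCs, at 0.27 ± 0.10 (adjusted p = 0.0365), was called, but not with DESeq2 (0.27) or without P-body replicate 2 (0.22), cytoplasm replicate 1 (0.24) or cytoplasm replicate 2 (0.30), and it was −0.13 with unscaled library sizes.

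FMR1, which encodes the polysome-associated translational repressor FMRP, was richer in liver bud progenitor P-bodies, with 119 and 136 CPM against 77.2 and 85.8 CPM in cytoplasm (log2 0.64 ± 0.08, adjusted p = 5.62e-10). Neurons showed 78.7 and 93.5 CPM against 66.0 and 62.9 CPM (log2 0.42 ± 0.13, adjusted p = 0.0342), which was not called without P-body replicate 2 (0.29), cytoplasm replicate 1 (0.44) or cytoplasm replicate 2 (0.37). The neuronal FMR1 change lay above 55.1% of all genes tested. In HEK293T cells the fractions overlapped, at 111 and 122 CPM against 116 and 103 CPM. Mouse Fmr1 was higher in P-bodies, 76.3 and 66.3 CPM against 52.0 and 55.6 CPM (log2 0.41 ± 0.08, adjusted p = 0.000294), and was 0.01 and not called with unscaled library sizes.

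ATXN2L and ATXN2 encode ataxin-2-like and ataxin-2, RNA-binding proteins found in stress granules, and behaved differently. ATXN2L was at 69.9 and 63.6 CPM in HEK293T P-bodies against 124 and 127 CPM in cytoplasm, 1.88-fold lower (log2 −0.91 ± 0.08, adjusted p = 7.09e-16). It fell furthest in liver bud progenitors, to 54.4 and 66.9 CPM from 145 and 158 CPM, 2.50-fold lower (log2 −1.32 ± 0.09, adjusted p = 8.13e-22). Neuronal libraries held 134 and 118 CPM against 206 and 181 CPM (log2 −0.62 ± 0.11, adjusted p = 0.000918), and mESC libraries 248 and 263 CPM against 377 and 361 CPM (log2 −0.53 ± 0.05, adjusted p = 5.73e-10). The fractions overlapped in none of the 4 cell types, and ATXN2L was called lower in P-bodies in each under every normalisation, filter, tool and left-out library tried. ATXN2 changed by 0.10 ± 0.08 in HEK293T cells, −0.17 ± 0.07 in liver bud progenitors (adjusted p = 0.0542) and 0.03 ± 0.10 in neurons, none called. The liver bud progenitor change was called lower with RLE size factors (−0.19), unscaled library sizes (−0.36), low counts filtered (−0.26), ribosomal RNA genes removed (−0.19), a replicate block (−0.17) and without cytoplasm replicate 2 (−0.25). In HEK293T cells it was called higher with RLE size factors (0.19) and in a single human fit (0.23). In mESCs it was called, at −0.19 ± 0.06 (adjusted p = 0.0106), where P-bodies held 121 and 132 CPM against 143 and 145 CPM, a call lost with DESeq2 (−0.20) and without P-body replicate 1 (−0.13).

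**Figure D2:**
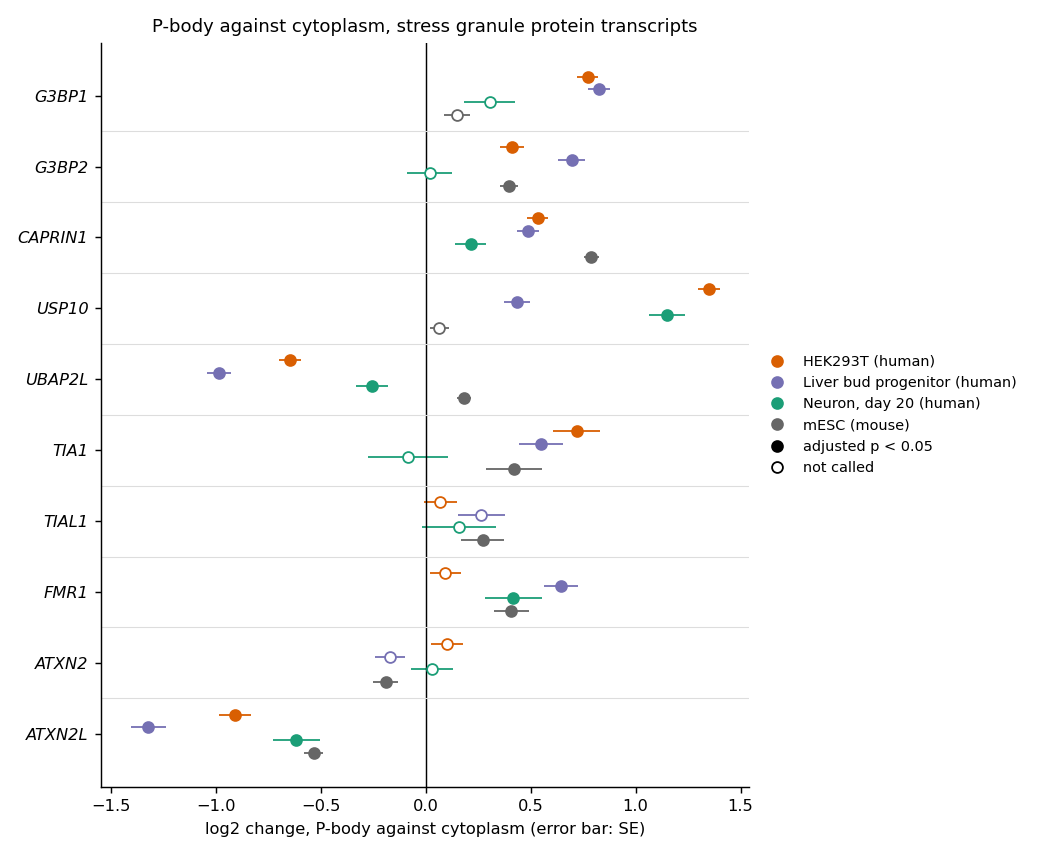
Log2 change between P-body and cytoplasm (x axis) for each transcript in the 4 cell types, with the SE as bar and filled points for an adjusted p under 0.05. ATXN2L lies below 0 in all 4 and CAPRIN1 above 0, whereas UBAP2L lies below 0 in the 3 human cell types and at 0.18 in mESCs.

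Libraries of the fractions did not overlap for 8 of the 10 transcripts in HEK293T cells, 10 in liver bud progenitors, 6 in the neurons and 10 in mESCs. The shares over all genes were 64.8%, 64.1%, 65% and 73%. With 2 libraries a fraction, such separation was common, and the neuronal count was near that of all genes.

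P-body enrichment of the stress granule transcripts differed between human cell types, as tested by the difference of the 2 P-body changes over all genes. Liver bud progenitors and neurons share the cell line and chemistry, and 6 of the 10 transcripts differed between them, 3 higher in neurons (9.21% of 22268 genes) and 3 lower (8.5%). G3BP1, G3BP2 and CAPRIN1 were less enriched in neurons, by 0.53 ± 0.10 (adjusted p = 0.00204), 0.68 ± 0.11 (adjusted p = 0.000493) and 0.28 ± 0.09 (adjusted p = 0.0399) on the log2 scale. USP10 was more enriched in neurons by 0.71 ± 0.11 (adjusted p = 0.000228), and UBAP2L and ATXN2L were less depleted there, by 0.72 ± 0.10 (adjusted p = 7.36e-05) and 0.70 ± 0.17 (adjusted p = 0.00830). The 3 lower calls did not hold with unscaled library sizes, which raised the median difference of all genes by 0.36 and gave −0.17 for G3BP1, −0.33 for G3BP2 and 0.08 for CAPRIN1. The CAPRIN1 difference was also lost when any of 5 of the 8 libraries was left out (−0.24 to −0.34), and that of ATXN2L without liver bud progenitor P-body replicate 1 (0.55), cytoplasm replicate 2 (0.64) or neuron cytoplasm replicate 2 (0.51). With RLE size factors (−0.25) or low counts filtered (−0.13), CAPRIN1 was not called either. Relative to all genes, USP10, UBAP2L and ATXN2L lay above 62.2% to 62.7% of all genes in this difference, and G3BP1 and G3BP2 above 25.7% and 21.4%.

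HEK293T cells differed from liver bud progenitors in 6 transcripts, 5 higher (15% of 22242 genes) and 1 lower (12.5%), with the cell line and chemistry differing as well. USP10 differed most, by 1.14 ± 0.08 (adjusted p = 6.63e-17), and CAPRIN1, UBAP2L, ATXN2 and ATXN2L were 0.27 to 0.64 higher in HEK293T cells. The median difference over all genes was 0.21. USP10 lay above 75.8% of all genes, and CAPRIN1, UBAP2L, ATXN2 and ATXN2L above 52.0%, 61.6%, 59.6% and 63.8%. The CAPRIN1 difference was not called with unscaled library sizes (0.10), with low counts filtered (0.09) or with all human libraries in a single fit (0.20). FMR1 was 0.32 ± 0.12 lower (adjusted p = 0.0402), a difference not called without any of 5 of the 8 libraries (−0.17 to −0.35). Against neurons, HEK293T cells had higher P-body changes for G3BP1 (0.61 ± 0.10), G3BP2 (0.53 ± 0.11), TIA1 (0.94 ± 0.24), CAPRIN1 (0.46 ± 0.08) and USP10 (0.34 ± 0.10), 5 of 10 where 6.19% of 22262 genes were higher, and no transcript was called lower, where 6.35% of genes were. Of these, TIA1 lost its call without HEK293T P-body replicate 1 (1.00), P-body replicate 2 (0.94), cytoplasm replicate 1 (0.84) or neuron cytoplasm replicate 2 (0.62), and USP10 without any of 6 of the 8 libraries (0.30 to 0.41). USP10 was also not called with low counts filtered (0.20). With unscaled library sizes none of the 5 was called higher in HEK293T cells, and UBAP2L, ATXN2L and FMR1 were called lower. The comparisons share libraries and are not independent.

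**Figure D3:**
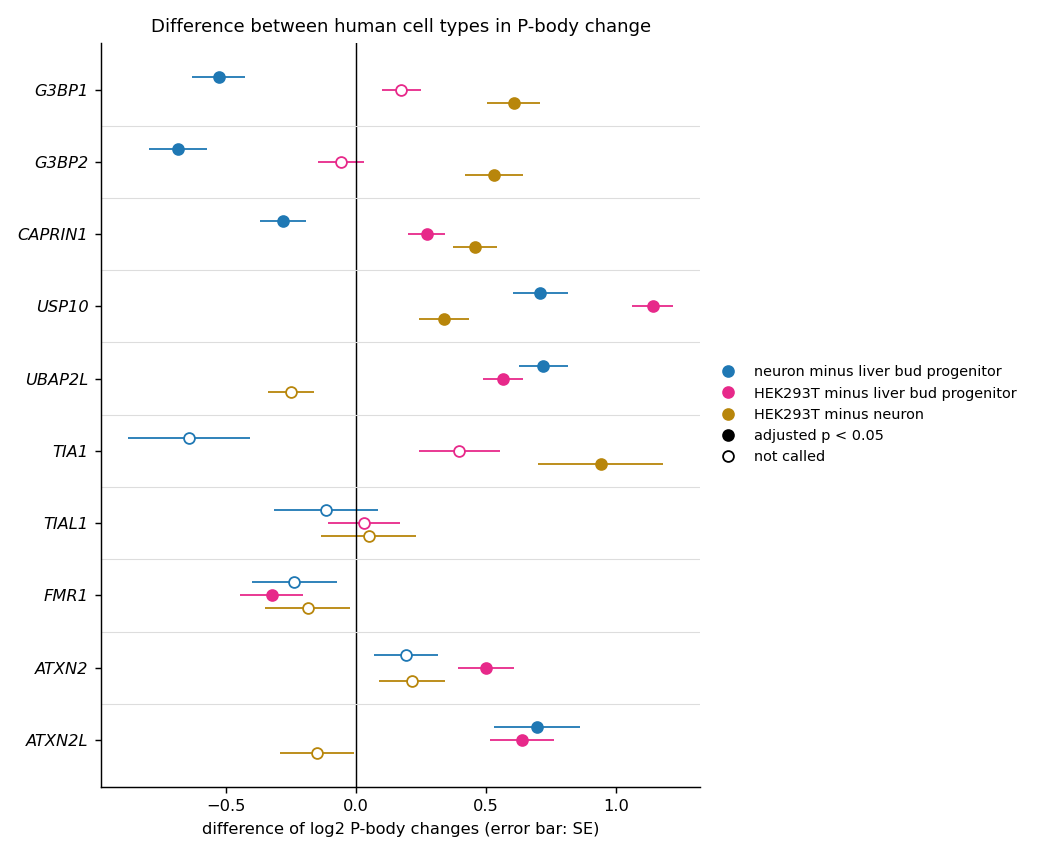
Difference of log2 P-body changes between pairs of human cell types (x axis) for each transcript, with the SE as bar and filled points for an adjusted p under 0.05. USP10 differs in all 3 pairs, and G3BP1 and G3BP2 differ where neurons enter.

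Levels in the cytoplasmic pellet before sorting also differed between the cell types derived from the UCLA4 line, and G3BP1 showed by far the biggest gap of the 10. On a scale shared by the 4 cytoplasmic libraries, G3BP1 was at 400.2 and 411 CPM in liver bud progenitors and at 74.1 and 77.9 CPM in neurons, 5.34-fold lower (log2 −2.42 ± 0.09, adjusted p = 1.06e-38). G3BP2 was lower by far less, 147 ± 8.68 against 198 ± 1.76 CPM (SD, n = 2; log2 −0.43 ± 0.09, adjusted p = 9.46e-06). CAPRIN1 (0.39 ± 0.07), UBAP2L (0.34 ± 0.07), ATXN2L (0.56 ± 0.09), TIA1 (0.52 ± 0.14) and ATXN2 (0.20 ± 0.09) were called higher in neurons. In all, 5 were higher (26% of 21900 genes) and 2 lower (25.8%). Both G3BP calls held with unscaled library sizes (−2.80 and −0.82), which lowered the median of all genes by 0.38, but none of the 5 higher calls did, and UBAP2L and ATXN2 turned to −0.04 and −0.19. TIA1 was not called without liver bud progenitor replicate 1 (0.42) or neuron replicate 2 (0.20), nor ATXN2 without liver bud progenitor replicate 1 (0.23), liver bud progenitor replicate 2 (0.16) or neuron replicate 2 (0.15), nor with DESeq2 (0.16). In such bulk samples fewer cells expressing a gene and less RNA per cell cannot be told apart.

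Per kilobase of transcript, UBAP2L was the most abundant of the 10 in cytoplasm of every cell type, at 217 ± 5.68 CPM per kb in HEK293T cells, 150.3 ± 3.45 in liver bud progenitors, 165 ± 0.455 in the neurons and 342 ± 10.8 in mESCs (SD, n = 2). CAPRIN1 came second in each, at 148 ± 5.75, 98.7 ± 3.68, 112 ± 0.789 and 163 ± 4.59 CPM per kb. At the other end were TIA1 at 6.12 ± 0.717 CPM per kb in HEK293T cells and 4.32 ± 0.475 in mESCs, and G3BP1 in neurons at 6.89 ± 0.245. Neuronal TIAL1 and TIA1, at 9.63 ± 1.27 and 10.9 ± 3.11 CPM per kb, did not differ beyond their spread. In P-bodies USP10 led in HEK293T cells at 330.1 ± 1.42 CPM per kb and in neurons at 146 ± 9.25, where it was within the spread of UBAP2L at 138 ± 4.94. The G3BP1 values rest on a transcript of 10227 bases, of which 8697 are 3′ UTR, and would be higher for a shorter form.

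The 2 members of each paralog pair could be compared within a library as a ratio of counts, which does not depend on scaling between libraries. The ATXN2 to ATXN2L ratio was higher in P-bodies in all 4 cell types. HEK293T cells gave 1.39 ± 0.0738 in P-bodies against 0.689 ± 0.0132 in cytoplasm, liver bud progenitors 2.43 ± 0.275 against 1.09 ± 0.103, neurons 1.32 ± 0.0519 against 0.849 ± 0.114 and mESCs 0.495 ± 0.00942 against 0.390 ± 0.0153 (SD, n = 2). The mean difference over cell types was 0.79 on the log2 scale (exact permutation test within cell types, two-sided, p = 0.00154, the smallest it can give, and 0.00463 adjusted over the 3 pairs). This ratio is built from the ATXN2L and ATXN2 counts already described.

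For G3BP1 to G3BP2, the ratio was higher in P-bodies of the human cell types, 2.81 ± 0.124 against 2.19 ± 0.00624 in HEK293T cells, 2.24 ± 0.170 against 2.05 ± 0.0203 in liver bud progenitors and 0.631 ± 0.00484 against 0.518 ± 0.0122 in neurons. In mESCs it was lower, 0.300 ± 0.00748 against 0.356 ± 0.00860. Over the 4 cell types the mean log2 difference of 0.13 did not pass (exact permutation p = 0.0895, adjusted 0.0895). Over the 3 human cell types alone it was 0.26 (exact permutation test, adjusted p = 0.0139). That subset leaves out mESCs, which went the other way, so it is no separate test of the pair. Few arrangements exist with 3 cell types, and ATXN2 to ATXN2L gave the same adjusted p there. TIA1 to TIAL1 differed by 0.22 on average, with neurons opposite to the other cell types at −0.22, and did not pass (exact permutation p = 0.0880, adjusted 0.0895). Without neuron cytoplasm replicate 2 the mean difference was 0.26.

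**Figure D4:**
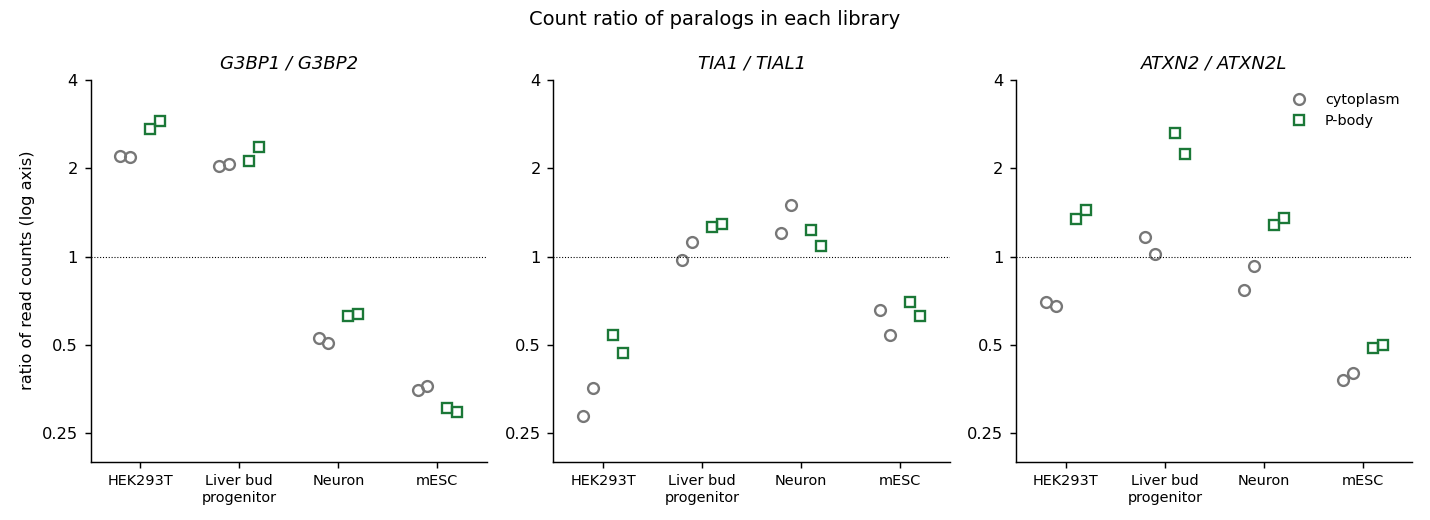
Ratio of read counts of paralogs (log axis) in each library of the 4 cell types, cytoplasm as grey circles and P-body as green squares. The ATXN2 to ATXN2L ratio is higher in every P-body library than in both cytoplasmic libraries of the same cell type, and G3BP1 to G3BP2 drops below 1 in neurons and mESCs.

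The transcripts differ in base composition, which the choice of genes did not use. G+C content of the main transcript ran from 36.5% in TIA1, 38.3% in G3BP1, 39.2% in FMR1, 39.5% in TIAL1, 40.2% in G3BP2 and 41.5% in CAPRIN1 to 46.6% in USP10, 50.0% in ATXN2, 51.5% in UBAP2L and 60.7% in ATXN2L. The median over human genes with a coding transcript was 48.6%, and ATXN2L lay above 87.3% of them. Thus the human transcripts lower in P-bodies, UBAP2L and ATXN2L, were the most G+C-rich of the 10. Spearman's rho between G+C content and log2 change over the 10 genes was −0.52 in HEK293T cells, −0.82 in liver bud progenitors, −0.39 in the neurons and −0.88 in mESCs. These values describe genes measured in the same libraries, which are not independent points. USP10 was off this order in HEK293T cells and neurons, with a middling G+C content and the highest change.

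Mouse and human orthologs were unequal in composition. G3bp1 held 48.9% G+C, 10.7 percentage points more than human G3BP1, and Usp10 held 54.2%, 7.59 points more than USP10. These were the 2 orthologs with the widest gaps, with changes of 0.77 and 1.35 in HEK293T cells against 0.15 and 0.07 in mESCs. Caprin1, Fmr1 and Ubap2l differed from their human orthologs by less than 1 point, at 42.0%, 39.2% and 50.7%, and their changes also moved, from 0.53 to 0.79, from 0.09 to 0.41 and from −0.65 to 0.18. With unscaled library sizes the mESC changes were −0.25 for G3bp1, −0.34 for Usp10, −0.22 for Ubap2l, 0.39 for Caprin1 and 0.01 for Fmr1. A link between composition and these changes was not tested. HEK293T cells and mESCs share the library chemistry but lie in separate tables, so the difference between species was not tested.

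**Figure D5:**
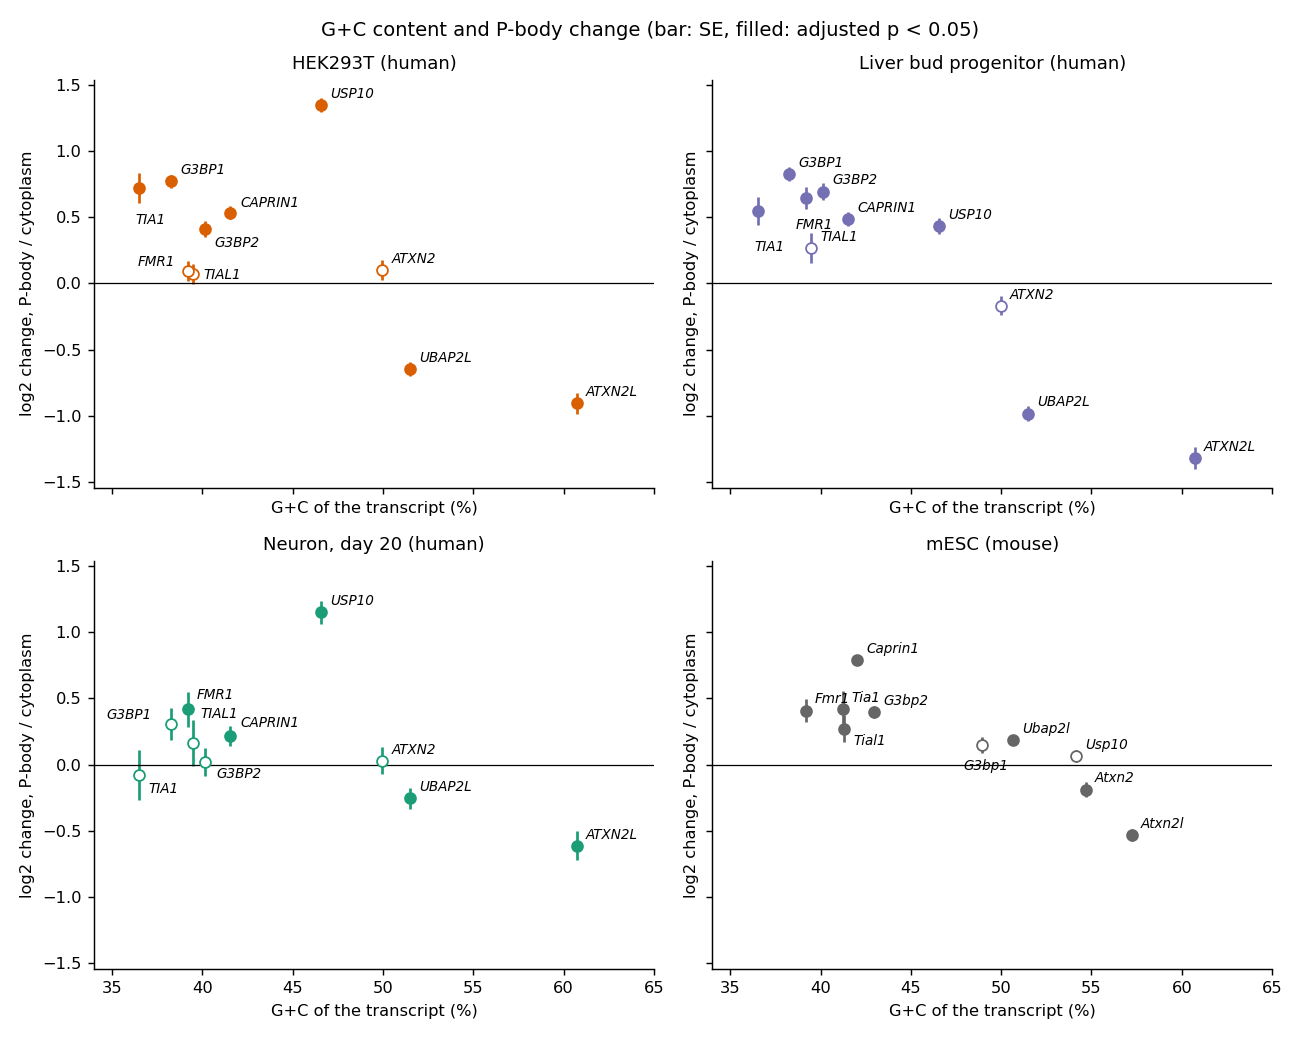
Log2 P-body change (y axis, SE as bar, filled for an adjusted p under 0.05) against the G+C content of the transcript in percent (x axis) for the 10 genes in each cell type. UBAP2L and ATXN2L lie at the lower right in the human panels, and USP10 lies above the others in HEK293T cells and neurons.

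Other proteins of stress granules, a list of 28 genes, had transcripts called on either side in every cell type. In HEK293T cells 12 were called higher and 13 lower, in liver bud progenitors 15 and 12, in neurons 11 and 13 and in mESCs 10 and 10, with median changes of −0.10, 0.18, −0.23 and 0.03. Over all genes the medians were −0.01, −0.09, 0.19 and −0.11, and the shares called higher and lower were 19.3% and 22.8%, 21.4% and 17.1%, 14.6% and 14.1%, and 25.8% and 20.6%. Calls for this list and those that follow are given with TMM and all libraries only. Unscaled library sizes shifted all genes by a median of −0.40 in mESCs and −0.13 in HEK293T cells, so small changes there rest on the scaling. YTHDF3, a reader of N6-methyladenosine, was higher in HEK293T P-bodies (1.50 ± 0.05, adjusted p = 9.03e-34), as was Ythdf3 in mESCs (1.19 ± 0.04, adjusted p = 4.33e-18). YTHDF3 was also higher in liver bud progenitors (1.12 ± 0.05) and neurons (1.29 ± 0.10). NUFIP2, a binding partner of FMRP, changed by 1.08 ± 0.05 in HEK293T cells and Nufip2 by 1.82 ± 0.04 in mESCs. Its changes were 1.00 ± 0.05 in liver bud progenitors and 1.47 ± 0.11 in neurons. PABPC1, the cytoplasmic polyA-binding protein, was lower in neuronal P-bodies (−0.53 ± 0.07). It was higher in those of liver bud progenitors (1.08 ± 0.03), HEK293T cells (0.24 ± 0.04) and mESCs (0.87 ± 0.03). FXR1, a paralog of FMR1, and LARP4 led in neurons (2.02 ± 0.12 and 1.92 ± 0.12). FXR1 was also higher in HEK293T cells (0.57 ± 0.07), liver bud progenitors (0.93 ± 0.07) and mESCs (1.12 ± 0.04). LARP4 was likewise higher there, by 0.49 ± 0.05, 1.32 ± 0.05 and 1.07 ± 0.04. Lower in P-bodies was EIF4G1, the scaffold of the cap-binding complex, at −1.27 ± 0.06 in HEK293T cells, −1.26 ± 0.06 in liver bud progenitors, −1.11 ± 0.09 in the neurons and −0.51 ± 0.04 in mESCs. PRRC2A was also called lower in every cell type, neurons included, with −1.24 ± 0.06 in HEK293T cells, −1.24 ± 0.06 in liver bud progenitors and −0.64 ± 0.05 in mESCs. PRRC2B was likewise lower in neurons (−1.16 ± 0.08) and liver bud progenitors (−1.14 ± 0.06). It was lower by less in HEK293T cells (−0.78 ± 0.07) and mESCs (−0.34 ± 0.04).

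Genes of the integrated stress response, the eIF2 pathway upstream of granule formation, numbered 16, of which 15 were in the mouse table. They were called higher and lower in 7 and 7 cases in HEK293T cells, 6 and 3 in liver bud progenitors, 4 and 2 in the neurons and 6 and 3 in mESCs, with medians of 0.20, 0.11, 0.06 and 0.03. In neurons this median lay below the 0.19 of all genes, of which 14.6% were higher and 14.1% lower, and in HEK293T cells, liver bud progenitors and mESCs it lay above the −0.01, −0.09 and −0.11 of all genes, of which 19.3%, 21.4% and 25.8% were higher and 22.8%, 17.1% and 20.6% lower. EIF2S2, the beta subunit of eIF2, was higher in P-bodies of HEK293T cells (1.06 ± 0.05), liver bud progenitors (0.78 ± 0.06), neurons (0.95 ± 0.16) and mESCs (0.94 ± 0.04). EIF2S1, the alpha subunit, was higher in neurons (1.97 ± 0.23), HEK293T cells (0.49 ± 0.08), liver bud progenitors (1.17 ± 0.12) and mESCs (0.72 ± 0.07). EIF2S3, the gamma subunit, was higher in liver bud progenitors (0.66 ± 0.07) and lower in HEK293T cells (−0.21 ± 0.06). Eif2ak2, encoding the eIF2 kinase PKR, was higher in mESC P-bodies (1.22 ± 0.06). Human EIF2AK2 was also higher in HEK293T cells (0.46 ± 0.07), liver bud progenitors (0.65 ± 0.08) and neurons (0.51 ± 0.15). ATF4, the transcription factor translated when eIF2 is phosphorylated, was lower in HEK293T cells (−0.98 ± 0.06), neurons (−0.94 ± 0.13) and mESCs (−0.32 ± 0.07). PPP1R15A, a regulatory subunit of an eIF2 phosphatase, was higher in P-bodies of HEK293T cells (1.56 ± 0.13) and mESCs (0.58 ± 0.15) and lower in those of neurons (−0.46 ± 0.14) and liver bud progenitors (−0.81 ± 0.17). The eIF2B subunits EIF2B1 in HEK293T cells (−0.67 ± 0.13) and Eif2b5 in mESCs (−0.38 ± 0.09) were lower, whereas Eif2b1 in mESCs was higher (0.58 ± 0.08). EIF2B5, at means of 8.48 and 8.92 CPM, was also lower in HEK293T cells (−1.42 ± 0.21) and liver bud progenitors (−0.95 ± 0.24).

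Among 11 genes for P-body proteins, 7 were called higher and 4 lower in HEK293T cells, 5 and 3 in liver bud progenitors, 8 and 2 in the neurons and 8 and 1 in mESCs, with medians of 0.36, 0.15, 1.20 and 0.63, beside −0.01, −0.09, 0.19 and −0.11 over all genes and the shares of all genes called that are given for the list above (19.3%, 21.4%, 14.6% and 25.8% higher). DCP1A, a decapping activator (1.58 ± 0.05), and EIF4ENIF1, which encodes the eIF4E transporter (1.25 ± 0.07), led in HEK293T cells, DCP2 in liver bud progenitors (1.28 ± 0.06), and Dcp2 and Dcp1a in mESCs (1.12 ± 0.05 and 0.98 ± 0.05). DCP1A was also higher in liver bud progenitors (0.41 ± 0.07) and neurons (1.20 ± 0.09), and DCP2 in HEK293T cells (0.71 ± 0.07) and neurons (2.47 ± 0.16). EIF4ENIF1 was higher in neurons (1.51 ± 0.11) and mESCs (0.83 ± 0.06) and not called in liver bud progenitors (0.10 ± 0.11). DDX6, the helicase required for P-bodies, was lower in HEK293T P-bodies (−0.51 ± 0.06) and higher in those of liver bud progenitors (0.92 ± 0.06), neurons (1.49 ± 0.09) and mESCs (0.71 ± 0.05). EDC4, the scaffold of the decapping complex, was lower in all 4, at −1.40 ± 0.12, −1.02 ± 0.13, −0.94 ± 0.19 and −0.45 ± 0.07. EDC3 was lower in neurons (−0.52 ± 0.14), HEK293T cells (−0.46 ± 0.10) and liver bud progenitors (−0.40 ± 0.12), and was not called in mESCs (−0.24 ± 0.18). PATL1 was lower in liver bud progenitors (−0.39 ± 0.08) and higher in HEK293T cells (0.16 ± 0.06), neurons (0.57 ± 0.10) and mESCs (0.44 ± 0.05). LSM14A was higher in P-bodies of neurons (2.13 ± 0.09), mESCs (0.88 ± 0.06) and liver bud progenitors (0.28 ± 0.04) and lower in HEK293T ones (−0.37 ± 0.05). Every line carries an LSM14A fusion, and the share of LSM14A reads that came from the transgene was not tested.

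Over the 12 human libraries, the genes whose log2 CPM most resembled that of G3BP1 were SNX5, MYLIP and DENND4C, with Pearson's r of 0.998, 0.994 and 0.994 among 6930 genes above a mean of 20 CPM. For G3BP2 they were GNA13, HIPK3 and CFAP97, at 0.992, 0.992 and 0.991. The 12 libraries come from 3 cell types, so these values largely follow differences between cell types.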

How the data were processed

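P-body RNA after sorting and cytoplasmic RNA before it were sequenced as paired-end reads in 16 libraries, 2 biological samples per group, so p-values measure only the spread between these samples. The authors deposited unnormalised read counts per gene symbol, on hg38 and mm10. Per the study's methods, total RNA libraries were processed with nf-core RNA-seq 3.9, UCSC refGene annotation and salmon 1.10.2, removing genes under 10 reads, and Smart-seq libraries with HISAT2 2.1.0 and featureCounts 1.6.2. Which of these made the polyA columns, and whether counting used strand, is not given in the sources used here. Tables of the authors' own comparisons (base means, log2 fold changes with errors, p-values and calls) were not used.

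Genes with no count in a comparison were dropped, libraries were scaled by TMM, and edgeR 4.0.16 (R 4.3.3) quasi-likelihood tests were run on all remaining genes with Benjamini-Hochberg adjustment. Each cell type was fitted alone, and differences of P-body change as an interaction over the 8 libraries of 2 cell types. Scripts were tested on simulated data. Alternatives were DESeq2 1.42.0, its size factors (RLE) in edgeR, library size only, edgeR's filter on low counts, removal of ribosomal RNA genes, a replicate block, a single human fit and leaving out each library. Paralog ratios used log2 counts with 0.5 added, permuting fractions within cell types (1296 arrangements).

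The 10 genes and all lists were chosen with earlier results of these data known. Named are all 10 genes, and from each list the 2 called genes of smallest p in each direction with a mean of at least 20 CPM. A gene that this rule names is not reported here. Lengths, G+C content and sequences came from GENCODE 44 (hg38) and M21 (mm10) transcripts. The largest library total was 17972284 counts and the smallest 6368953, in which 3 counts are 0.471 CPM. The loci of ATXN2 (SH2B3), G3BP1 (ATOX1), G3BP2 (USO1), Atxn2 (Sh2b3) and Ubap2l (4933434E20Rik and Gm19710) overlap genes on the opposite strand, and those of TIA1 (C2orf42) and UBAP2L (SNORA58B) genes on the same strand, so reads in the shared stretches are uncertain.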

Additional observations from a re-analysis of the deposited data

Results flagged for a closer look

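P-body changes that differed between 2 human cell types by the interaction test in edgeR were singled out. Between neurons and liver bud progenitors the log2 differences were −0.53 for G3BP1, −0.68 for G3BP2, −0.28 for CAPRIN1, 0.72 for UBAP2L, 0.70 for ATXN2L and 0.71 for USP10. Between HEK293T cells and liver bud progenitors they were 0.27 for CAPRIN1, 0.57 for UBAP2L, 0.50 for ATXN2, 0.64 for ATXN2L, 1.14 for USP10 and −0.32 for FMR1. Between HEK293T cells and neurons they were 0.61 for G3BP1, 0.53 for G3BP2, 0.94 for TIA1, 0.46 for CAPRIN1 and 0.34 for USP10.

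Opposite directions in human cells and mESCs, where every library of one moved up and every library of the other down, were not tested, since the species lie in separate tables. For UBAP2L the human change was below that of mESCs by −0.83 in HEK293T cells, −1.17 in liver bud progenitors and −0.44 in neurons, and for ATXN2 the HEK293T change was above by 0.29. The log2 difference of the G3BP1 to G3BP2 ratio was above that of mESCs by 0.61 in HEK293T cells, 0.38 in liver bud progenitors and 0.53 in neurons. With 2 libraries per group, no single library could be tested as standing apart.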

How the results depend on the processing

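Scaling mattered most. With library size only, P-body changes became −0.058 for TIAL1, −0.026 for ATXN2 and −0.036 for FMR1 in HEK293T cells, 0.076 for TIA1 in neurons (1 gene called lower), and −0.25 for G3BP1, −0.0054 for G3BP2, −0.13 for TIAL1, −0.22 for UBAP2L and −0.34 for USP10 in mESCs (1 higher and 5 lower). Neurons minus liver bud progenitors became 0.24 for TIAL1, 0.079 for CAPRIN1 and 0.12 for FMR1 (0 lower), HEK293T cells minus liver bud progenitors −0.14 for TIAL1 (2 lower), HEK293T cells minus neurons −0.38 for TIAL1, −0.22 for ATXN2 and −0.095 for USP10 (0 higher and 3 lower), and neuron minus liver bud progenitor cytoplasm −0.24 for TIAL1, −0.045 for UBAP2L, −0.19 for ATXN2 and −0.28 for USP10 (0 higher and 4 lower). With edgeR's filter, TIA1 in neurons was 0.021 (1 lower), USP10 in mESCs −0.020, TIAL1 0.031 between neurons and liver bud progenitors, G3BP1 −0.0089 and TIAL1 −0.15 between HEK293T cells and liver bud progenitors (2 lower), and TIAL1 −0.087 between HEK293T cells and neurons (1 lower). RLE left 1 lower in neurons, and DESeq2 1 lower in mESCs and 0 lower between HEK293T cells and liver bud progenitors. A single human fit gave −0.092 for G3BP2 and −0.082 for ATXN2 in neurons, and −0.047 for TIAL1 (0 lower) between HEK293T cells and liver bud progenitors, as did removal of ribosomal RNA genes (−0.046). The cause of these changes was not tested.

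Counts over all genes moved with scaling too, given as higher and lower calls. With library size only they were 446 and 3328 for HEK293T cells minus neurons (1379 and 1414 with TMM), 3520 and 940 for neurons minus liver bud progenitors (2050 and 1892), 2510 and 3665 for HEK293T cells minus liver bud progenitors (3339 and 2788), 2591 and 6609 in mESCs (4104 and 3271), 3822 and 4850 in liver bud progenitors (4708 and 3747), 3839 and 2356 in neurons (3220 and 3123) and 4173 and 7270 in cytoplasm (5696 and 5648). With the filter they were 1023 and 1958, 2601 and 1536, and 2410 and 3739 for the 3 differences in that order, and without ribosomal RNA genes 1945 and 1072 for HEK293T cells minus neurons. A single human fit gave 4936 lower in neurons, 1991 higher for HEK293T cells minus liver bud progenitors and 2085 higher for HEK293T cells minus neurons, and DESeq2 gave 1784 lower in mESCs. Of the 88 counts without single libraries, 26 moved by over 1.5 times, with ranges of 2109 to 4394 higher and 1892 to 4433 lower in neurons, 1193 to 2772 and 1160 to 3628 for neurons minus liver bud progenitors, and 781 to 2372 and 672 to 2499 for HEK293T cells minus neurons.

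Leaving out single libraries gave −0.026 to 0.16 for TIAL1 in HEK293T cells, −0.030 to 0.079 for ATXN2, −0.054 to 0.066 for G3BP2 and −0.36 to 0.23 for TIA1 in neurons, with 1 to 3 genes higher and 1 to 2 lower there, and 1 to 2 lower in mESCs. Between neurons and liver bud progenitors 2 to 5 were lower. Between HEK293T cells and liver bud progenitors 0 to 1 were lower, with −0.10 to 0.010 for G3BP2 and −0.039 to 0.21 for TIAL1. Between HEK293T cells and neurons 3 to 5 were higher and 0 to 1 lower, with −0.086 to 0.21 for TIAL1. In cytoplasm 3 to 5 were higher, with −0.0027 to 0.27 for TIAL1. The TIA1 to TIAL1 ratio difference ran from 0.18 to 0.26, and over human libraries alone that of G3BP1 to G3BP2 was 0.26.

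Same-numbered replicates deviated together with correlations of −0.12 in HEK293T cells, 0.06 in liver bud progenitors, 0.15 in the neurons and −0.03 in mESCs, so the numbers were not taken as pairing. A replicate block gave 4157 higher and 4981 lower in HEK293T cells, 4761 and 3720 in liver bud progenitors, 3353 and 3601 in the neurons and 4158 and 3244 in mESCs, and 1 gene of the 10 (UBAP2L) lower between HEK293T cells and neurons. The block also brought past the threshold, by adjusted p in edgeR, G3BP1 in neurons (0.0483) and mESCs (0.0499), TIAL1 (0.0443) and ATXN2 (0.0381) in liver bud progenitors and TIA1 between neurons and liver bud progenitors (0.0166), and lost ATXN2 in cytoplasm (0.137). Crossing the HEK293T numbers, chosen after seeing the data, gave 4267 and 5044.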
